A study of Homo sapiens with 6 samples.

Results

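The BCL2 family decides whether the outer membrane of the mitochondrion stays closed. Pro-survival members (BCL2, BCL2L1, BCL2L2, MCL1 and BCL2A1) bind and hold their relatives, the effectors BAX and BAK1 form the pore that lets cytochrome c out, and the BH3-only proteins (among the genes measured here BCL2L11, BID, BAD and BMF) carry death signals to both. In melanocytes and melanoma, BCL2A1 is known as a gene that the lineage factor MITF and NF-kappaB can both drive, and MCL1 is a short-lived protein on which many melanoma cells lean. The 10 genes described here were chosen by name, and all 10 were found among the 60675 gene identifiers of the count table. All 10 passed the filter on low counts.

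RNA was sequenced from 3 wells of A2058 cells treated with vitamin C, labelled 100 µM for 48 h, and from 3 control wells of the same line, and the question was how vitamin C shifts the transcriptome. A2058 is an established line from a metastatic melanoma that was cultured in medium without vitamin C, so all 6 wells are cultures of 1 line and the p-values measure only the spread between wells. The labels carry a second dose, 50 µM sodium ascorbate, in their protocol text, and the study itself gives the dose of the sample labels. Library totals ran from 20944956 to 32549362 counts in vitamin C wells and from 16248869 to 41884588 in control wells. All 11 melanocyte markers passed the filter, with MITF at 507 CPM in vitamin C and 527 CPM in control wells. Passing alone does not identify the line, since 5 of 6 fibroblast and 4 of 6 endothelial markers passed too. In control wells the melanocyte markers summed to 2540 to 2650 CPM, the fibroblast markers to 58.1 to 66.3 CPM and the endothelial markers to 8.27 to 8.91 CPM. Vitamin C replicate 3 stood apart from the other wells of its group, by a chi-square of its counts, divided by the degrees of freedom, of 11.0 and 10.7 against replicates 1 and 2, which differed from each other by 3.31 (sampling noise alone would give about 1). Control replicate 1, the deepest library, also differed more from its group, by 6.65 and 5.61 against control replicates 2 and 3, which differed from each other by 2.75. Where it matters, results are also given without vitamin C replicate 3.

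The promoter windows of BCL2A1, the member that passed the test, and BCL2L11, the one with the lowest fold change, differ widely in base content and are shown for that reason. RefSeq promoter windows (GRCh38.p14, the 250 bases before a transcript start) were at hand for 8 of the 10 members, in 15 windows. The BCL2A1 window (chr15:79971197-79971446, minus strand) holds 2 CG pairs, the dinucleotide that DNA methylation and its oxidation act on, while the median over all 35116 windows is 11. In GENCODE 29 the whole BCL2A1 window also lies inside the first exon of a longer BCL2A1 transcript, so only 30 bases of it (chr15:79971204-79971233) are printed, with CATGTG, the E-box variant known to bind MITF, in capitals. The BCL2L11 window (chr2:111120664-111120913, plus strand) holds 34 CG pairs, the most among the members' windows, and is printed with each CG pair in capitals.

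BCL2A1, bases -37 to -8 from the start: tccatgtatcatCATGTGtcataactcagt

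BCL2L11, 250 bases before the start: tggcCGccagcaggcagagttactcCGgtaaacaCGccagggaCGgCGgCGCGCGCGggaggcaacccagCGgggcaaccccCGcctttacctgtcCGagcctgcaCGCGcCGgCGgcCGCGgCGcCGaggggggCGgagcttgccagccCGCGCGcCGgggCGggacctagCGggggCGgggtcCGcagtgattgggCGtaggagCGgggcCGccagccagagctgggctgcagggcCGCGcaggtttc

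A match to CATGTG on either strand is found in 9.42% of all windows, and to GTAAACA, a motif of FOXO factors that BCL2L11 also holds once, in 2.98%. A loose form of the kappaB motif is in 54.4% of all windows, and the BCL2A1 window has no match. Among the members, 1 of the 5 windows of BID, which did not pass the test, also holds CATGTG. Another 2, which overlap, hold the same single site of the E-box CACGTG, found in 6.34% of all windows. These are matches of letters in a window, not measured binding. The windows of the other 6 members held between 0 and 30 CG pairs and varied within a gene too: BMF has a window with 0 and another with 26, BID has 1 with 4, and BAK1 has 5.

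Among the 10 members, BCL2A1 alone rose with vitamin C. It was 1.46-fold higher, and no member fell. At an unadjusted p under 0.05 there were 3 members, BCL2A1, MCL1 and BAK1, all higher, and DESeq2 called BCL2A1 alone. Genes at large often reached such p-values: BAK1, with an unadjusted edgeR p of 0.038, ranked 3795 of 16353 genes by p. MCL1, the most abundant member, was higher in every vitamin C well than in any control well but its 1.09-fold difference did not pass the test. The effector BAK1 and the BH3-only gene BCL2L11 showed the next largest differences, of opposite sign, and neither passed. Called members were 1 of 10, against 11.2% of all 16353 genes tested in either direction with 6.09% called higher and 5.09% called lower, so the family was not called more often than genes at large. The median log2 fold change was 0.10 over the 10 members and -0.0037 over all genes tested. In bulk RNA, fewer cells that express a gene and less of its RNA per cell cannot be told apart.

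BCL2A1 encodes a small pro-survival protein best known from blood cells, activated endothelium and the melanocyte lineage. In GRCh38 it spans bases 79960889 to 79971446 of chromosome 15, minus strand, and no exon base of it is shared with another gene. Its level was 30.2, 30.1 and 36.9 CPM in vitamin C replicates 1, 2 and 3, against 23.3, 19.7 and 23.3 CPM in control replicates 1, 2 and 3, which rests on 2537 counts in the vitamin C and 1876 in the control libraries. Every vitamin C well lay above every control well, and replicate 3 was the highest. The log2 fold change was 0.55 (standard error 0.0928, 95% interval 0.35 to 0.75, edgeR quasi-likelihood adjusted p = 0.0018), rank 400 of all genes by p. Without vitamin C replicate 3 it was 0.46 (edgeR adjusted p = 8.1e-04), and over the other 5 libraries left out in turn it stayed between 0.47 and 0.60. BCL2A1 was called under all 15 alternative settings tried.

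**Figure D1:**
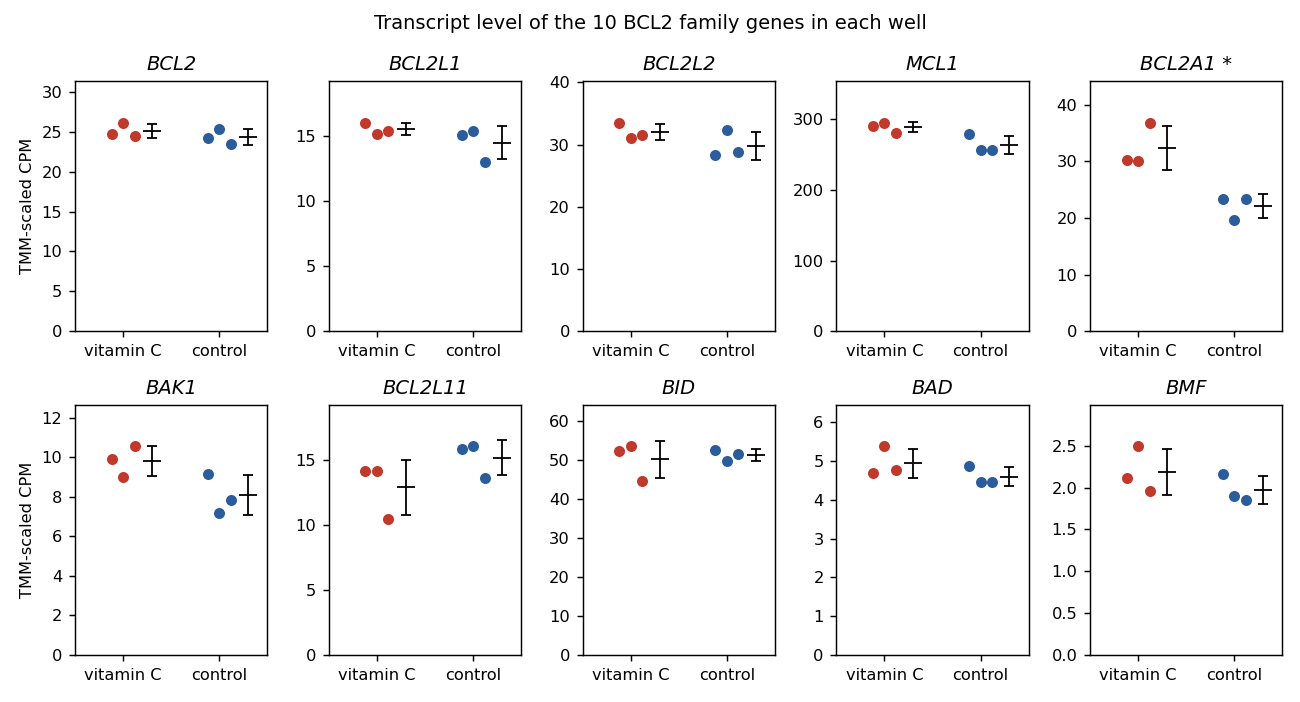
Level of the 10 members in TMM-scaled CPM (y axis, from 0, a scale for each gene) in each of the 3 vitamin C wells (red) and 3 control wells (blue), with the mean and SD of each group as black bars. The star marks BCL2A1, the member with an edgeR adjusted p under 0.05, whose vitamin C wells lie between 30.1 and 36.9 CPM and control wells between 19.7 and 23.3 CPM.

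MCL1, whose protein blocks BAK1 and is turned over within a short time, was at 290, 295 and 281 CPM in vitamin C replicates 1, 2 and 3, against 279, 257 and 256 CPM in control replicates 1, 2 and 3. The groups did not overlap, as was true of 2 of the 10 members and of 30.6% of all genes tested. Its log2 fold change was 0.13 (standard error 0.0473, 95% interval 0.03 to 0.23, edgeR adjusted p = 0.099). Without vitamin C replicate 3 it was 0.15 and passed (edgeR adjusted p = 0.033), which brings the called members to 2.

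The other 3 pro-survival members did not pass the test, and their wells overlapped between the groups. BCL2, the founding member of the family, averaged 25.1 ± 0.901 CPM in vitamin C and 24.4 ± 0.978 CPM in control wells (SD, n = 3 each). Its log2 fold change was 0.04, and the 95% interval of -0.10 to 0.19 bounds any rise at 1.14-fold. BCL2L1, the gene of BCL-XL, averaged 15.5 ± 0.437 CPM in vitamin C and 14.5 ± 1.31 CPM in control wells, a log2 fold change of 0.09 (95% interval -0.10 to 0.27). For BCL2L2, the gene of BCL-W, it was 0.10 (95% interval -0.05 to 0.25). Their edgeR adjusted p-values ran from 0.41 to 0.74. Reads of 2 of these genes may be left uncounted or assigned to partners whose exons overlap theirs. Of the exon bases of BCL2L1, 43.0% lie opposite the non-coding ABALON. Of those of BCL2L2, 19.4% are shared with the read-through gene BCL2L2-PABPN1 on the same strand.

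BAK1, the pore-forming effector among the 10, was at 9.90, 8.997 and 10.6 CPM in vitamin C replicates 1, 2 and 3, against 9.17, 7.19 and 7.86 CPM in control replicates 1, 2 and 3. The groups overlapped, since control replicate 1 lay above vitamin C replicate 2. The log2 fold change was 0.26 (standard error 0.114, 95% interval 0.02 to 0.51, edgeR adjusted p = 0.16). Its pseudogene BAK1P1, a copy that could take some of its reads, held no more than 4 counts in any library.

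BCL2L11, the gene of BIM, a BH3-only protein that binds every pro-survival member, had the lowest fold change among the 10. It was at 14.1, 14.1 and 10.4 CPM in vitamin C replicates 1, 2 and 3, against 15.8, 16.01 and 13.6 CPM in control replicates 1, 2 and 3. The groups overlapped, and vitamin C replicate 3 was the lowest well. Of the exon bases of BCL2L11, 10.9% lie opposite MIR4435-2HG. The log2 fold change of -0.24 (standard error 0.112, 95% interval -0.48 to 0.01) missed the threshold (edgeR adjusted p = 0.21), and without replicate 3 it was -0.11 (edgeR adjusted p = 0.48).

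The remaining BH3-only members differed little. BID, which caspase-8 cleaves to link death receptors to mitochondria, averaged 50.2 ± 4.74 CPM in vitamin C and 51.3 ± 1.45 CPM in control wells (SD, n = 3 each), a log2 fold change of -0.03 with a 95% interval of -0.18 to 0.12. BAD, which survival kinases keep bound to 14-3-3 proteins, averaged 4.95 ± 0.375 CPM in vitamin C and 4.599 ± 0.238 CPM in control wells, with a log2 fold change of 0.10 (95% interval -0.17 to 0.38). Of its exon bases, 23.7% lie opposite GPR137. BMF, a BH3-only protein tied to the cytoskeleton, had the fewest reads, 177 counts in the vitamin C and 171 in the control libraries, so that its 95% interval of -0.27 to 0.56 still admits a 1.47-fold rise. Their edgeR adjusted p-values were between 0.67 and 0.83. Of the exon bases of BMF, 8.46% lie opposite BMF-AS1.

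**Figure D2:**
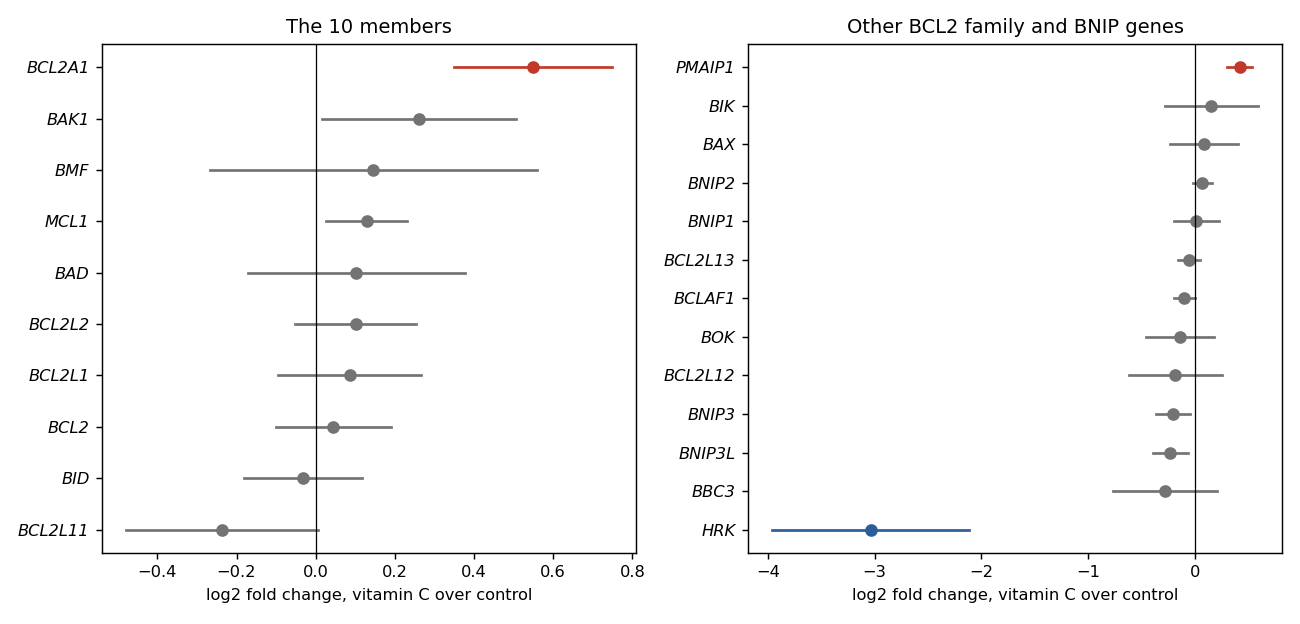
Vitamin C over control as a log2 fold change (x axis), with 95% intervals as bars, for the 10 members (left). Right, on a wider axis, are the 13 other BCL2 family and BNIP genes with enough counts, BCLAF1 among them. Red genes are higher and blue genes lower at an edgeR adjusted p under 0.05: BCL2A1 at 0.55, PMAIP1 at 0.42 and HRK at -3.04.

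Counts were divided by exon length to set the members side by side, since a longer transcript draws more reads. On this scale of CPM per kb of exon, MCL1 was the most abundant at a mean of 63.2 over the 6 wells, BCL2A1 followed at 25.0, then BID at 11.4 and BCL2L2 at 7.38, with each of these above the next in every well. BCL2L1 (4.53) and BAK1 (4.04) overlapped, as did BCL2L11 and BCL2 (2.10 each), while BAD lay between these pairs at 2.80. BMF was last at 0.382. BCL2, the gene that gives the family its name, was thus the least abundant pro-survival member on this scale. The length used is that of all annotated exons of a gene, which the expressed transcript may not share. Exons that overlap other genes, as in BCL2L1 and BCL2L2, may also lower a level on this scale. Without division by length, BCL2L1 was the lowest, at 15.5 CPM in vitamin C and 14.5 CPM in control wells. BCL2 then stood at 25.1 and 24.4 CPM.

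The sum over the 5 pro-survival members was 109, 109 and 112 CPM per kb in vitamin C replicates 1, 2 and 3, against 98.5, 91.3 and 92.9 CPM per kb in control replicates 1, 2 and 3. BCL2A1 made up 25.5%, 25.3% and 30.1% of that sum in the vitamin C wells, against 21.7%, 19.8% and 23.1% in the control wells, and the share of MCL1 was 59.9% ± 2.39 in vitamin C and 64.0% ± 0.796 in control wells (SD, n = 3 each). The sum over the 4 BH3-only members was 16.5 ± 1.55 CPM per kb in vitamin C and 16.9 ± 0.520 CPM per kb in control wells. These sums describe transcripts and were not tested. Without division by exon length, the share of BCL2A1 was 8.24% in vitamin C and 6.24% in control wells, because BCL2A1 is the shortest of the 10 transcripts.

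**Figure D3:**
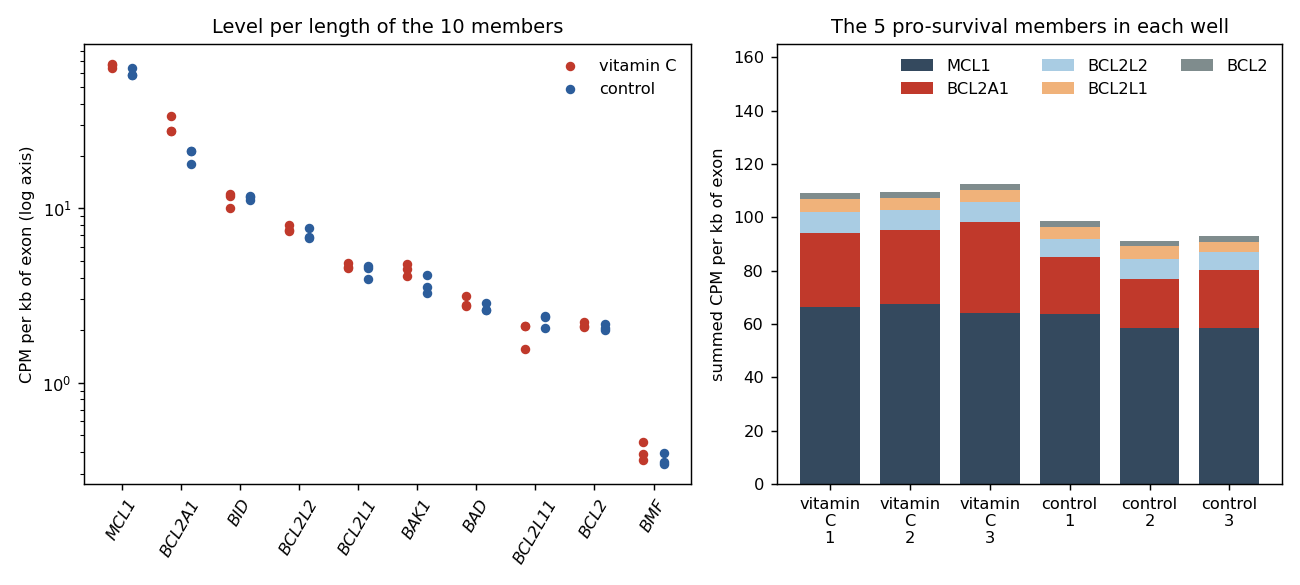
Left, level of each member in CPM per kb of exon (y axis, log scale) in the 3 vitamin C (red) and 3 control wells (blue), from MCL1 at a mean of 63.2 to BMF at 0.382. Right, the summed level of the 5 pro-survival members in each well (CPM per kb, from 0), where the BCL2A1 part (red) is taller in the vitamin C wells.

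Outside the 10, the family held 2 further changes, both in BH3-only genes and in opposite directions. Of 16 other BCL2 family and BNIP genes, a list that also holds BCLAF1, 13 were tested, 1 was higher and 1 lower. Over all 16353 genes tested, 11.2% were called in either direction, and the list was not tested as a set. The lower calls were 3 without vitamin C replicate 2, 3 with no filter on low counts, 2 by DESeq2 and by edgeR's likelihood ratio test, and 0 with at least 10 counts in every library, a filter that HRK does not pass. PMAIP1, the gene of NOXA, whose protein binds MCL1 and BCL2A1, was at 72.9, 72.8 and 78.3 CPM in vitamin C replicates 1, 2 and 3, against 56.5, 55.9 and 54.6 CPM in control replicates 1, 2 and 3. The groups did not overlap, and the log2 fold change was 0.42 with a standard error of 0.0536 (edgeR adjusted p = 2.2e-04). HRK, the gene of Harakiri, fell: it held 4, 5 and 1 counts in vitamin C replicates 1, 2 and 3, against 35, 32 and 20 in control replicates 1, 2 and 3. Its log2 fold change was -3.04 (95% interval -3.96 to -2.12, edgeR adjusted p = 4.8e-04), a level of 0.119 ± 0.0615 CPM in vitamin C and 1.09 ± 0.217 CPM in control wells (SD, n = 3 each), so it was a minor transcript in both. The effector BAX averaged 5.55 ± 0.775 CPM in vitamin C and 5.28 ± 0.931 CPM in control wells (edgeR adjusted p = 0.78). BBC3, the gene of PUMA, was at 3.25 ± 0.333 CPM in vitamin C and 4.09 ± 1.32 CPM in control wells (edgeR adjusted p = 0.48).

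Among the caspases and their inhibitors, 3 inhibitors of apoptosis and 2 initiator caspases rose. The lists that follow were not tested as sets. Over all genes tested, 6.09% were called higher and 5.09% lower. Of 9 mitochondrial partners and released factors, such as cytochrome c and the VDAC channels, none was called by edgeR (2 at an unadjusted p under 0.05), none by DESeq2, and 1 was called lower with upper quartile scaling. Their median log2 fold change was 0.02. Of 10 apoptosome and caspase genes, 2 were higher: CASP9, the initiator caspase that APAF1 activates, with 0.82 (standard error 0.157, edgeR adjusted p = 0.0042), and CASP10, an initiator caspase of the death receptors, with 0.41 (edgeR adjusted p = 0.030), whose call was lost under 5 of the 15 alternatives. Of 6 tested inhibitor of apoptosis genes, 3 were higher and none lower. BIRC7, the gene of livin, found in melanoma, held 33, 56 and 21 counts in vitamin C replicates 1, 2 and 3, against 2, 3 and 2 in control replicates 1, 2 and 3, a log2 fold change of 3.95 (95% interval 2.99 to 4.90, edgeR adjusted p = 8.6e-05). BIRC3, the gene of cIAP2, averaged 34.1 ± 1.63 CPM in vitamin C and 21.3 ± 1.76 CPM in control wells (log2 fold change 0.66, edgeR adjusted p = 8.8e-05). BIRC2, the gene of cIAP1, rose with 0.43 (edgeR adjusted p = 1.4e-04).

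Of 11 tested death receptor and adaptor genes, 2 were higher and none lower, against 6.09% and 5.09% of all genes tested. FAS, the receptor of FAS ligand, averaged 31.2 ± 1.15 CPM in vitamin C and 23.3 ± 1.52 CPM in control wells (SD, n = 3 each), and TNFRSF10A, a receptor of TRAIL, 16.6 ± 1.34 CPM in vitamin C and 11.6 ± 0.454 CPM in control wells. Their log2 fold changes were 0.41 and 0.51 (edgeR adjusted p = 0.0019 and 0.0018). Of the exon bases of TNFRSF10A, 16.6% lie opposite other genes, among them TNFRSF10A-AS1. Of 17 tested genes that bind the members or set their turnover, HUWE1, a ubiquitin ligase that marks MCL1, fell by 0.25 on the log2 scale (edgeR adjusted p = 0.0059), and DYNLL1, the dynein light chain that holds BIM, rose with 0.19 (edgeR adjusted p = 0.046), a call lost under 7 of the 15 alternatives. Without vitamin C replicate 1 the lower calls of this list were 2.

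**Figure D4:**
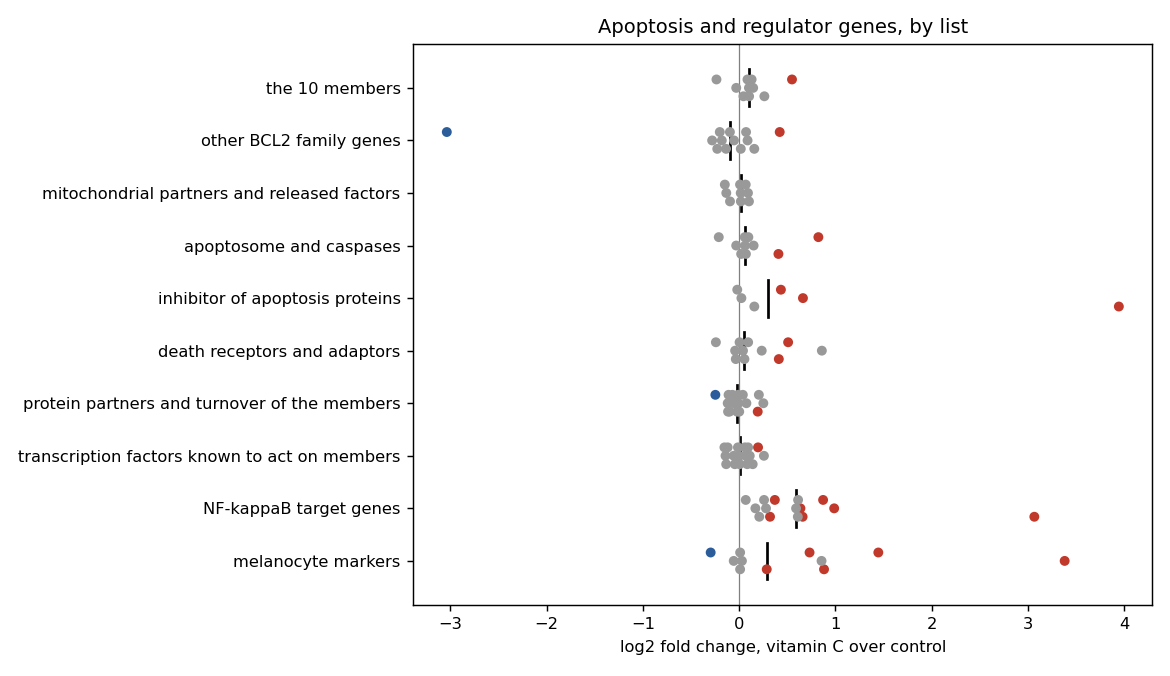
Vitamin C over control as a log2 fold change (x axis) for each tested gene, by list (rows), with the median of each list as a black line. Genes that passed an edgeR adjusted p of 0.05 are red where higher and blue where lower, and the rest are gray. The 10 members have their median at 0.10, the NF-kappaB targets at 0.59 (0.39 without control replicate 3) and the inhibitors of apoptosis at 0.30.

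Genes known to share regulators with BCL2A1 are given beside it, from lists chosen with earlier results of these data known. Of all genes tested, 6.09% were called higher and 5.09% lower. Of 17 transcription factors known to act on members, 1 was called, HIF1A, with a log2 fold change of 0.20 (edgeR adjusted p = 0.0081), and the median was 0.01. Without vitamin C replicate 3, 1 of them was also called lower. MITF, named after its value was seen, had a log2 fold change of -0.06 (edgeR adjusted p = 0.48). Of 15 NF-kappaB target genes, 7 were higher and none lower, with a median of 0.59 that was 0.39 without control replicate 3: IL1B at 3.07, CXCL8 at 0.99 and CXCL1 at 0.66 had the smallest p. Of 11 melanocyte markers, 5 were higher and 1 lower, with a median of 0.29: the melanosome antigens MLANA at 3.38 and PMEL at 0.73 and the transporter SLC45A2 at 1.45 had the smallest p, and the one that fell was the pigment enzyme DCT at -0.30. The summed level of the 11 melanocyte markers went the other way, at 2350 to 2480 CPM in vitamin C and 2540 to 2650 CPM in control wells. Neither MITF nor NF-kappaB was measured as a protein.

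Since BCL2A1 is also a gene of blood cells and activated endothelium, their markers were read in the same wells. Of all genes tested, 6.09% were called higher. Of 10 leukocyte markers, 3 had enough counts to test and 1 was higher, LAPTM5 (log2 fold change 0.98, edgeR adjusted p = 2.2e-04). Their summed level was 9.51 to 10.7 CPM in vitamin C and 5.21 to 6.59 CPM in control wells. CD53, TYROBP and CD52 are named for their low counts. CD53 and TYROBP held 1 count each in the vitamin C and 1 each in the control libraries. CD52 held 0 and 1. PTPRC, the common leukocyte antigen, held 45 counts in the vitamin C and 67 in the control libraries. Of 6 endothelial markers, 4 were tested and 3 were higher: KDR at 0.87, PECAM1 at 1.60 and TIE1 at 1.24, the last lost under 6 of 14 alternatives. Their summed level was 16.8 to 18.2 CPM in vitamin C and 8.27 to 8.91 CPM in control wells, with CDH5 at 13 counts in the vitamin C and 4 in the control libraries. Their part in the BCL2A1 difference was not tested.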

How the data were processed

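Ribosome-depleted RNA was sequenced as paired-end reads. The authors aligned reads with STAR and deposited counts of reads per gene from HTSeq, without normalization. The submitters' processing notes also name CASAVA 1.4, Trim Galore and hg38. The study's methods name GENCODE v19, but 57055 of the 60675 identifiers are in GENCODE 29 (GRCh38), used here for symbols, coordinates and exon lengths. Whether counting used strand is not stated in the sources used here. The 6 tables of single samples held the same values as the series table.

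In R 4.3.3, edgeR 4.0.16 kept 16353 genes with filterByExpr, normalised by TMM and fitted the 6 libraries for a quasi-likelihood test of vitamin C over control. A call needed a p under 0.05 after Benjamini-Hochberg adjustment over all genes tested. CPM use the TMM-scaled totals of the tested genes. The test was checked on simulated data. The alternatives were other scalings and filters, DESeq2 1.42.0, limma-voom 3.58.1, edgeR's likelihood ratio test, a replicate block and each library left out.

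The members and gene lists were chosen with earlier results of these data known. Named genes are the 10 members, BAX, BBC3, PMAIP1 and up to 3 called genes with the smallest p of each list. Also named, for each called member, are the 3 genes closest by the root mean square difference of centred log2 of CPM plus 0.5. MITF, DCT and markers named for their counts fall outside this rule.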

Additional observations from a re-analysis of the deposited data

How the results depend on the processing

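Over 15 alternatives, 148 of 150 values of the 10 members kept their direction and their side of the threshold. Leaving out vitamin C replicate 3 gave the other 2: MCL1 passed at 0.15, which made 2 members called, and BID turned to 0.047 (range -0.079 to 0.047 with each library left out). The number of called members was 1 to 2 over the libraries left out and 1 under every other setting. Over all genes, 1829 were called, 1913 with the replicate block, and 964 to 2095 with a library left out, lowest without control replicate 3. The cause was not tested. With upper quartile scaling 48.1% of calls were higher, and with library size alone 59.4%, against 54.5% with TMM. The replicate block changed no call among the members (BCL2A1 0.54, edgeR adjusted p = 5.0e-04). It gave 3 lower calls, against 1, in the list of other BCL2 family and BNIP genes with BCLAF1. Whether same-numbered wells were paired cannot be settled from so few wells. The correlation of their deviations was 0.13, -0.04 and 0.10 for replicates 1, 2 and 3. Vitamin C replicates 1 and 3 correlated best with the control of the same number, and vitamin C replicate 2 with control replicate 1. Without exon lengths, the BCL2A1 share of pro-survival transcripts was 8.24% in vitamin C and 6.24% in control wells. The median of the inhibitors of apoptosis, 0.30, was 0.165 with no filter, 0.155 by DESeq2 and 0.158 with at least 10 counts in every library. BMF, HRK and BIRC7 are limited by their counts.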

Other observations

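Over the 12910 genes with a symbol that averaged 1 CPM or more, the 3 whose levels over the 6 libraries lay closest to those of BCL2A1 were the bicarbonate transporter SLC4A8, the collagen COL3A1 and PRDM7, a gene of a histone methyltransferase. The root mean square difference of their centred log2 CPM from BCL2A1 was 0.0600, 0.0623 and 0.0647. COL3A1 and PRDM7 were called higher, with log2 fold changes of 0.76 and 0.55 (edgeR adjusted p = 0.019 and 0.047), and SLC4A8 at 0.62 was not (edgeR adjusted p = 0.084). The COL3A1 call was lost under 3 of 15 alternatives: DESeq2, and without control replicate 1 or 2. Their mean levels were 1.75, 2.47 and 3.06 CPM, and 6 libraries cannot single out a close pattern among so many genes. The 0.5 CPM added before the log also shrinks differences at such low levels.

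Of 6 fibroblast markers, 5 were tested and 2 were higher with vitamin C, LUM at a log2 fold change of 0.83 and COL3A1 at 0.76 (1 higher where the COL3A1 call was lost), with a summed level of 95.4 to 113 CPM in vitamin C and 58.1 to 66.3 CPM in control wells. Of 6 keratinocyte markers, 2 were tested and neither was called by edgeR (0 at an unadjusted p under 0.05, and 0 called by DESeq2), with a summed level of 15.1 to 18.1 CPM in vitamin C and 15.3 to 17.5 CPM in control wells.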
